A study of Mus musculus with 8 samples.

Results

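Ppara, Ppard and 7 target genes of their pathway were followed across retinoic acid (RA) treatment in a mouse hepatocyte line. The 7 targets were Acot1, Acot2, Acot3, Acot4, Acaa1b, Aldh3a2 and Ehhadh. The 9 genes, of the 18192 genes named by the arrays, were selected on measured values: their RA differences on these same arrays were known when they were chosen. Their RA values are therefore given as a description, without a test. The question was whether the targets moved with Ppara or against it under RA.

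Transcripts were measured on 8 Affymetrix oligonucleotide arrays. The cells were AML12, an established line of cultured mouse hepatocytes, and the same line after v-erbA transfection. This avian retroviral oncoprotein derives from a thyroid hormone receptor and acts as a repressor of hormone and retinoid target genes. Each line was untreated or received 1 µM RA, with samples titled 3 h and 24 h, which gave 4 groups per line and 1 array per group. The descriptions of 3 of the 4 samples with 24 h in the title say 3 h instead; times were taken from the titles. No group was replicated, so the p-values reflect how far the 8 arrays depart from the model and no spread between cultures. The effect of v-erbA cannot be told apart from that of transfection or of the transfected line itself, and the level of v-erbA was not analysed here.

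Peroxisome proliferator-activated receptor alpha, the product of Ppara, is a nuclear receptor that binds fatty acids and their derivatives. It pairs with retinoid X receptors on DNA and switches on genes of fatty acid oxidation in liver. Ppard encodes a related receptor with overlapping targets. Acyl-CoA thioesterases split acyl-CoA into free fatty acid and coenzyme A: Acot1 is the cytosolic enzyme, Acot2 the mitochondrial one, and Acot3 and Acot4 act in peroxisomes. Acaa1b encodes a peroxisomal thiolase and Ehhadh the bifunctional enzyme that acts before it. Aldh3a2 encodes fatty aldehyde dehydrogenase, which oxidises long-chain aldehydes to fatty acids.

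The 4 thioesterase genes lie side by side on mouse chromosome 12, in the order Acot2, Acot1, Acot4, Acot3, followed by Acot5 and Acot6. Their upstream sequences are shown because the 4 neighbours shared a direction under RA, and that of Aldh3a2 because its RA differences were even across pairs. Each sequence is the 120 bases before the RefSeq start of the gene (assembly GRCm38.p6), 5′ to 3′ on the strand of the gene. Capitals mark the stretch in the 250 bases before the start that is closest to AGGTCANAGGTCA, the direct repeat known as DR1 that PPAR and its partner recognise, where N is any base. Both strands were searched.
Acot2: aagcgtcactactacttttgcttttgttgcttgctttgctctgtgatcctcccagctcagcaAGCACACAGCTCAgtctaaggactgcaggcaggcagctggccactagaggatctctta
Acot1: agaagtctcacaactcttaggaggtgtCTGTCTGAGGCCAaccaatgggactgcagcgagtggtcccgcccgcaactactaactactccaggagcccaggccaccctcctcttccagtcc
Acot4: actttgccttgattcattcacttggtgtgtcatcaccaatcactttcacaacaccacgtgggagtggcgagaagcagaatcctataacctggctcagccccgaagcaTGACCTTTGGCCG
Acot3: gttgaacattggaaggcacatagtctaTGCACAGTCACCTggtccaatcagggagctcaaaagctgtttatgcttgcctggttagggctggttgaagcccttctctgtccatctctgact
Aldh3a2: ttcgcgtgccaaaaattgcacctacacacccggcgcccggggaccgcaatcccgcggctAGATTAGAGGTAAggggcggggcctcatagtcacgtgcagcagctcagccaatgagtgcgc
They span chr12:83987741-83987860, chr12:84009382-84009501, chr12:84038259-84038378 and chr12:84052024-84052143 on the plus strand for Acot2, Acot1, Acot4 and Acot3, and chr11:61267187-61267306 on the minus strand for Aldh3a2.

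The Acot4 stretch differed from DR1 at 2 of the 12 letters scored and ended at the base before the start, on the opposite strand. Among 32817 promoter windows of the same length, 3.23% held a stretch at least as close. The closest stretches of Acot2 and Aldh3a2 had 3 mismatches, reached by 21.3% of windows. Those of Acot1, Acot3, Acaa1b, Ehhadh and Ppara had 4 mismatches, reached by 74.5%, and that of Ppard had 5, reached by 99.6%. The exact element occurred in 11 of the 32817 windows (0.0335%) and in none of the 9. The 6-base unit AGGTCA, on either strand, was present only in the Acot4 window among the 9 genes and in 14% of all windows. These are matches of letters in a short window; no binding was measured.

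Array medians lay between 71.2 and 76.1 signal units. A signal under the median of all values pooled, 73.5 units, is called dim here. All 9 hepatocyte marker genes that were measured, of 10 listed, were above that level on every array, and all 5 biliary and progenitor markers were too. The summed hepatocyte markers ran from 27820 to 43472 units, highest on the untreated 24 h AML12 array. Untreated arrays covered 27820 to 43472 units and RA arrays 28488 to 32933 units. By line the sum was lower with v-erbA in all 4 pairs: 27820 against 32341 units and 33005 against 43472 units untreated at 3 h and 24 h, and 28488 against 32568 units and 29595 against 32933 units with RA. Summed fibroblast markers reached 203 to 372 units, macrophage markers 174 to 405 units, endothelial markers 73.4 to 173 units and adipocyte markers 48.4 to 88.7 units. Of these 4 lists, 2 genes each were dim on every array. In these bulk samples, fewer cells of a type and less RNA per cell cannot be told apart.

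Ppara was lower with RA in each of the 4 pairs of arrays matched by line and time. Its signal in AML12 was 750 units at 3 h and 1219 units at 24 h without RA, and 343 and 606 units with RA. The v-erbA line gave 806 and 1044 units without RA, and 506 and 507 units with RA. All 4 RA arrays lay below all 4 untreated arrays. The RA array read 0.458 and 0.497 times its untreated partner in AML12 at 3 h and 24 h, and 0.628 and 0.486 times in the v-erbA line. The mean difference was -0.93 ± 0.19 (SD over 4 pairs) on the scale of log2(signal + 19.9), an offset that shrinks differences of dim genes.

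Ppara was read by 3 probe sets, which differed in the size of the RA difference but not in its sign. The second probe set gave a mean RA difference of -1.04 on the log2 scale, from 626, 951, 612 and 841 units without RA to 311, 396, 399 and 310 units with it (AML12 at 3 h and 24 h, then the v-erbA line). The third gave -0.28, with 359, 619, 547 and 660 units without RA and 302, 454, 443 and 589 units with it. In the third probe set the untreated and RA arrays overlapped.

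Ppard stayed near the dim level. Without RA its signals were 87.0 and 67.2 units in AML12 and 64.6 and 77.7 units in the v-erbA line, at 3 h and 24 h. With RA they were 80.7 and 113 units in AML12 and 57.8 and 56.0 units in the v-erbA line. The RA difference was higher in 1 pair and lower in 3, with a mean of 0.01 ± 0.42 (SD, 4 pairs). A second probe set for Ppard, and 1 that also names another gene, were dim on all 8 arrays.

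The thioesterases were higher with RA in all 4 pairs, opposite to Ppara. Acot1 read 2894 and 3246 units in untreated AML12 and 3792 and 4338 units with RA, at 3 h and 24 h. The v-erbA line gave 3393 and 3758 units untreated and 3990 and 4995 units with RA. Every RA array was above every untreated one, and the mean RA difference was 0.36 ± 0.09 (SD, 4 pairs).

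Acot2 read 572 and 719 units in untreated AML12, and 909 and 1210 units with RA. With v-erbA it read 688 and 825 units untreated, and 897 and 1317 units with RA. The groups did not overlap here either. The RA array read 1.59, 1.68, 1.30 and 1.60 times its partner (AML12 at 3 h and 24 h, then the v-erbA line), a mean log2 difference of 0.61 ± 0.16 (SD, 4 pairs). A second Acot2 probe set gave 0.57, and a probe set that names both Acot1 and Acot2 gave 0.59. Signal on probes that these near-identical neighbours share cannot be assigned to 1 gene.

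Acot3 had lower signals in the v-erbA line and a higher signal with RA in both lines. In AML12 it read 218 and 337 units untreated and 431 and 493 units with RA. With v-erbA it read 148 and 152 units untreated and 241 and 269 units with RA. The 2 treatments did not overlap within a line but did across lines, and the mean RA difference was 0.71 ± 0.17 (SD, 4 pairs). Acot3 was read by 1 probe set, and whether it also reads the neighbouring genes could not be checked.

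Acot4 lay near the dim level. In AML12 it read 94.6 and 133 units untreated and 136 and 137 units with RA. The transfected line gave 69.3 and 78.4 units untreated and 120 and 110 units with RA. The pair at 24 h in AML12 was nearly level, at 1.04 times, and the mean RA difference was 0.39 ± 0.25 (SD, 4 pairs). A second Acot4 probe set gave 0.38.

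**Figure D1:**
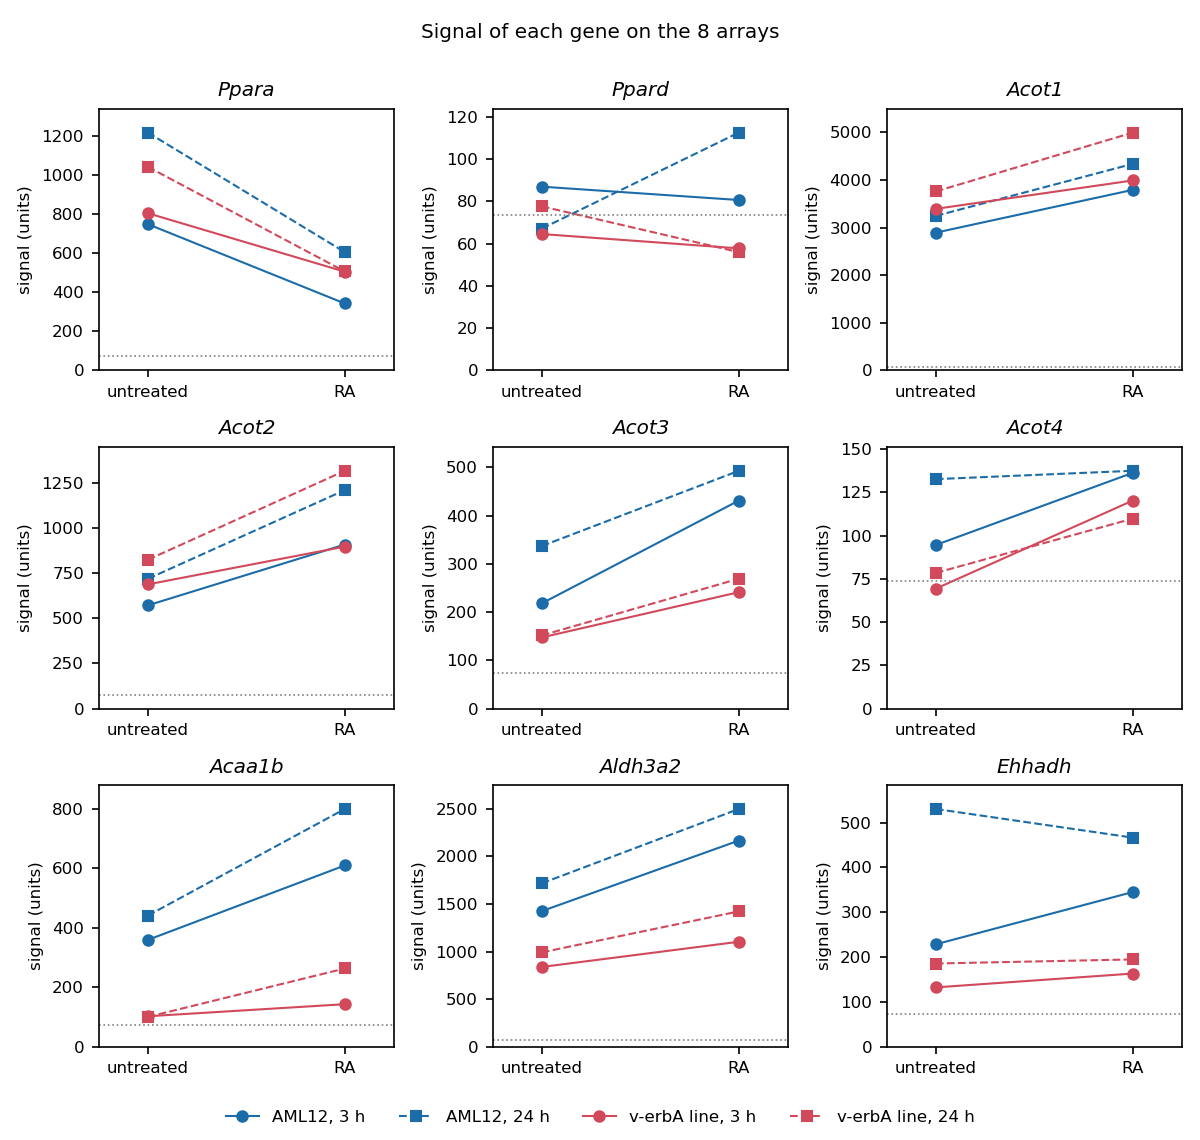
Signal in units (linear axis from 0) of the 9 genes on the 8 arrays, untreated on the left and RA on the right of each panel; blue is AML12, red the v-erbA line, circles and solid lines 3 h, squares and dashed lines 24 h, and the dotted line is the dim level of 73.5 units. The Ppara lines slope down in all 4 pairs, those of Acot1, Acot2, Acot3, Acot4, Acaa1b and Aldh3a2 slope up, and Ehhadh slopes down in AML12 at 24 h.

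Acaa1b had the highest mean RA difference of the 7 targets and a low level in the v-erbA line. In AML12 it read 359 and 441 units untreated and 610 and 800 units with RA, at 3 h and 24 h. With v-erbA it read 103 and 101 units untreated and 143 and 263 units with RA. The pairs gave 1.70, 1.81, 1.39 and 2.62 times, a mean log2 difference of 0.80 ± 0.34 (SD, 4 pairs). Its close paralog Acaa1a, also a peroxisomal thiolase, read 1211 and 1205 units in untreated AML12 and 1228 and 1189 units with RA. The pair of probe sets that name both thiolases gave mean RA differences of 0.07 and 0.09.

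Aldh3a2 read 1425 and 1717 units in untreated AML12, and 2165 and 2497 units with RA. The transfected line gave 838 and 991 units untreated, and 1103 and 1422 units with RA. The 4 pairs lay close together, at 1.52, 1.45, 1.32 and 1.43 times, with a mean log2 difference of 0.51 ± 0.09 (SD).

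Ehhadh was the exception among the targets. In AML12 it read 229 units untreated and 345 units with RA at 3 h, but 530 units untreated and 466 units with RA at 24 h. In the v-erbA line it read 132 and 186 units untreated, and 163 and 195 units with RA. The mean RA difference was 0.18 ± 0.31 (SD, 4 pairs), smaller than the spread between pairs. The untreated 24 h AML12 array, which held the highest Ehhadh signal, was also the array with the highest summed hepatocyte markers; the part of these in the result was not tested. Without that array the Ehhadh difference was 0.32, without the untreated 3 h AML12 array 0.025 and without the RA 3 h v-erbA array 0.098, the lowest and highest of the 8 fits with 1 array left out being 0.025 and 0.32.

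Set side by side, the targets were opposite to Ppara in 27 of 28 values, counted over 7 targets and 4 pairs. The count was 7 of 7 in AML12 at 3 h, 6 of 7 in AML12 at 24 h, and 7 of 7 at each time in the v-erbA line. Median target differences were 0.60 and 0.52 in AML12 and 0.39 and 0.51 in the v-erbA line, beside -1.08, -0.98, -0.65 and -1.01 for Ppara. The pair with the smallest Ppara difference, the v-erbA line at 3 h, was also the one with the smallest median target difference; both come from the same arrays. This count describes genes selected on the same contrast, and nothing is read from it beyond the direction in each pair.

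**Figure D2:**
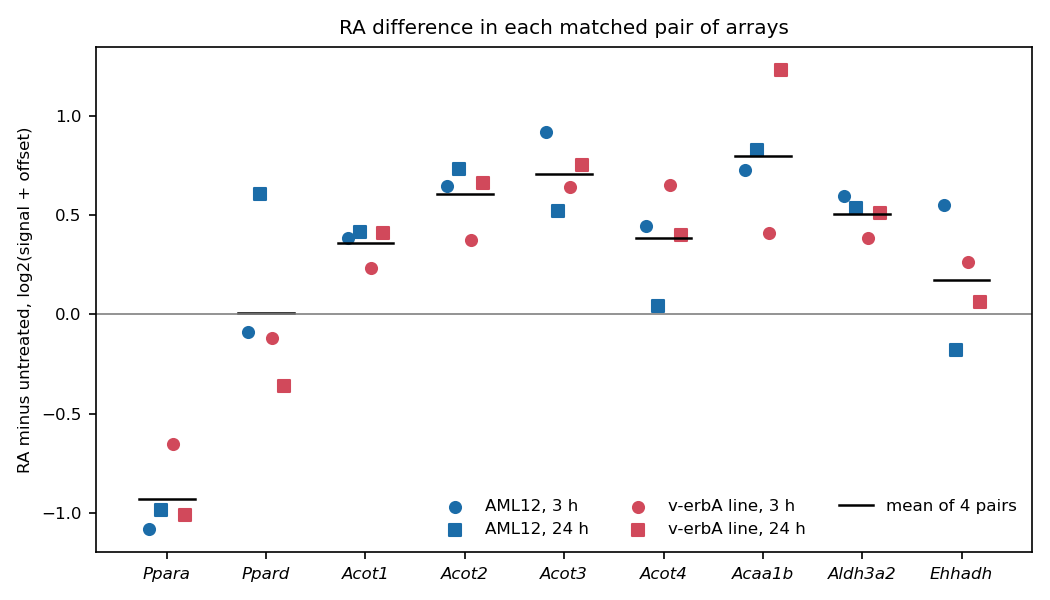
RA minus untreated on the log2(signal + 19.9) scale for each matched pair of arrays; blue is AML12, red the v-erbA line, circles 3 h, squares 24 h, and the bar is the mean of 4 pairs. All 4 Ppara values lie between -1.08 and -0.65, and 27 of the 28 target values lie above 0.

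By line, the targets were divided. The rule that chose the genes names RA and not this contrast, although earlier results on these arrays were known when they were chosen. In an additive limma model of line, treatment and time, 5 of the 9 genes were lower in the v-erbA line, 1 was higher and 3 did not pass an adjusted p of 0.05. Of all 11997 genes tested, 53.5% passed for this contrast, 26.5% higher and 27.0% lower, so a call by line is common on these arrays. The median over the 7 targets was -0.79 on the log2 scale, beside 0.012 over all genes tested.

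Acaa1b fell by 1.76 ± 0.11 (SE) on the log2 scale with v-erbA (limma adjusted p = 2.90e-06), the largest line difference of the 9 genes, and it was lower in 4 of 4 pairs. Ehhadh fell by 1.07 ± 0.13 (adjusted p = 0.000118) and Aldh3a2 fell by 0.82 ± 0.04 (adjusted p = 1.21e-06), again in 4 of 4 pairs each. For these 3 genes, every v-erbA array was below every AML12 array, a separation whose share among all genes tested was not counted. Some hepatocyte markers moved with them: of the 9 tested, 5 fell in the v-erbA line, 1 rose and 3 did not pass. Apoa1 and Apoh, which encode plasma apolipoproteins, had the largest falls. Apoa1 fell by 2.98 ± 0.31 (adjusted p = 5.48e-05) and Apoh fell by 1.95 ± 0.17 (adjusted p = 1.99e-05). Serpina1b was the 1 that rose, by 1.89 ± 0.14 (adjusted p = 6.13e-06), and Alb, Ttr and Fgb did not pass. The part of this marker shift in the results by line was not tested. Acot3 fell by 0.79 ± 0.09 (adjusted p = 7.17e-05) and Acot4 fell by 0.36 ± 0.11 (adjusted p = 0.0195), each lower in 4 of 4 pairs. The Acot4 call was lost without the untreated v-erbA array of 3 h or of 24 h or the RA v-erbA array of 24 h (adjusted p = 0.0669, 0.0647 and 0.0634).

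The remaining thioesterases did not share that direction. Acot1 rose by 0.18 ± 0.04 (SE) on the log2 scale in the v-erbA line (limma adjusted p = 0.00293; higher in 4 of 4 pairs). Acot2 differed by 0.14 ± 0.06 (adjusted p = 0.0806; higher in 3 of 4 pairs), which did not pass. It passed under quantile normalization (adjusted p = 0.0361), with the mean of its probe sets (0.0285), with all 2-way interactions in the model (0.0262), and without the RA v-erbA array of 3 h (0.0157). Thus the neighbours on chromosome 12 were divided, with Acot3 and Acot4 lower and Acot1 higher. Acot6, the last gene of the cluster, rose by 0.80 ± 0.08 (adjusted p = 4.75e-05), from 70.8 to 108 units in AML12 to 140 to 184 units in the v-erbA line. With the mean of all its probe sets the Acot6 difference was 0.35 (adjusted p = 0.00808), and Acot5 was dim on all arrays.

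The receptors themselves did not pass for the line contrast. Ppara differed by 0.04 ± 0.11 (SE) on the log2 scale (limma adjusted p = 0.783), higher in both pairs at 3 h and lower in both at 24 h. That value turned to -0.065 without the RA 3 h AML12 array and to -0.098 without the RA 3 h v-erbA array, so it has no settled sign. The third Ppara probe set gave a line difference of 0.39 and was higher with v-erbA in every pair, also at 24 h. Ppard differed by -0.34 ± 0.15 (adjusted p = 0.0792), and without the untreated 24 h AML12 array by -0.49 (adjusted p = 0.00849). Among their partners, Rxra, which encodes the retinoid X receptor alpha, fell by 0.91 ± 0.07 (adjusted p = 6.64e-06), or by 0.38 with the mean of all its probe sets (adjusted p = 0.00701), and Pparg, which encodes the remaining PPAR, rose by 1.05 ± 0.09 (adjusted p = 2.32e-05).

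**Figure D3:**
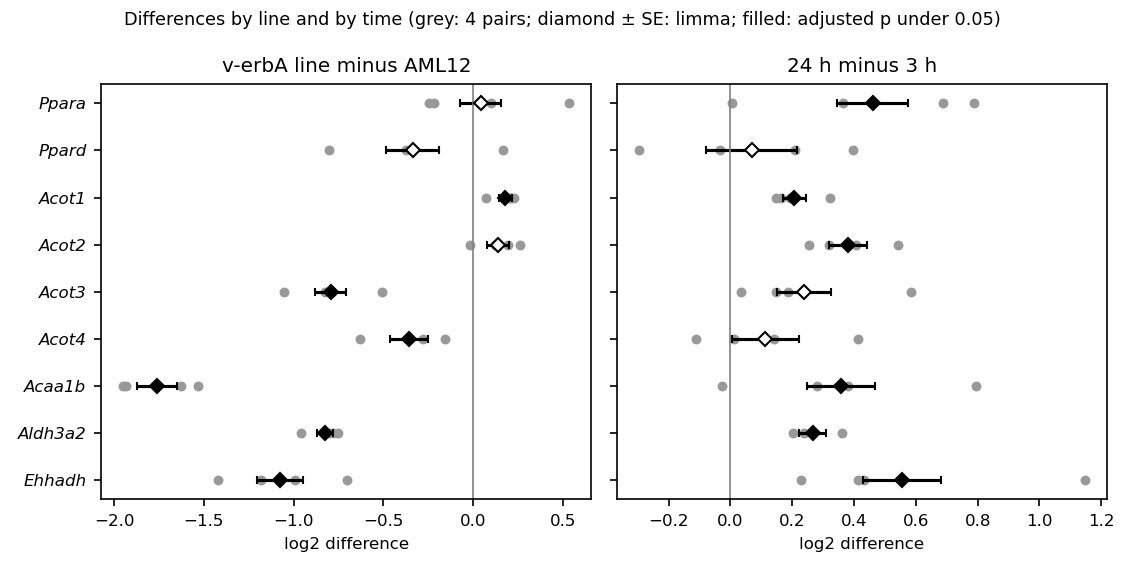
Differences by line (left) and by time (right) on the log2(signal + 19.9) scale; grey points are the 4 matched pairs, diamonds with bars the limma estimate ± SE, filled where the adjusted p is under 0.05. Acaa1b lies near -1.76 and Acot1 near 0.18 in the line panel, and all 6 filled diamonds of the time panel lie above 0.

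Ppara and 5 of the 7 targets were higher together at 24 h. At 24 h against 3 h, 6 of the 9 genes were higher, 0 lower and 3 not past the threshold in the limma model, against 34.3% of all genes, 19.3% higher and 15.0% lower. Median centring of the arrays moved the share of higher among all time calls from 56.3% to 45.0%, and the 6 members stayed higher under it. Ppara rose by 0.46 ± 0.11 (SE) on the log2 scale (adjusted p = 0.0131), though the pair of RA arrays of the v-erbA line was level, at 1.00 times. The second Ppara probe set gave 0.25 but fell between the RA arrays of the v-erbA line, from 399 to 310 units. The third gave 0.49. The median over the 7 targets was 0.27, beside 0.032 over all genes tested.

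Ehhadh rose by 0.56 ± 0.13 (SE) on the log2 scale (limma adjusted p = 0.00909) and by 0.41 without the untreated 24 h AML12 array (adjusted p = 0.0109). Acot2 rose by 0.38 ± 0.06 (adjusted p = 0.00127), Aldh3a2 by 0.27 ± 0.04 (adjusted p = 0.00156) and Acot1 by 0.21 ± 0.04 (adjusted p = 0.00246), each in 4 of 4 pairs. Acaa1b rose by 0.36 ± 0.11 (adjusted p = 0.0328), in 3 of 4 pairs. Its call was lost without the untreated 3 h AML12 array or any of the RA arrays (adjusted p = 0.0605 to 0.101), and without the mean-variance trend (0.0609). Acot3 differed by 0.24 ± 0.09 (adjusted p = 0.0606), Acot4 by 0.11 ± 0.11 (adjusted p = 0.446) and Ppard by 0.07 ± 0.15 (adjusted p = 0.745), and these 3 did not pass.

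The RA responses of the 9 genes were not shown to differ by line or by time. For the difference of RA responses between lines, limma called 0 of 9 members (adjusted p = 1.00 for each, 0 at an unadjusted p under 0.05), against 0.0% of all genes, where 199 had an unadjusted p under 0.05. For the difference between 24 h and 3 h it called 0 of 9 (adjusted p = 0.612 to 0.956, 1 at an unadjusted p under 0.05), against 0.0167% of all genes. The largest differences by time were 0.46 ± 0.17 (SE) for Acaa1b and -0.47 ± 0.21 for Ehhadh on the log2 scale. For Ppara the difference between lines was 0.20 ± 0.23 and that between times -0.13 ± 0.23. Both tests had 3 residual degrees of freedom and called few or no genes at all, so a count of 0 does not show equal responses. They also use the RA differences that were known when the members were chosen.

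Other genes of the PPAR pathway were tested for RA list by list, beside 1.19% of all 11997 genes called, 0.825% higher and 0.367% lower. At that share, a count of 0 or 1 in a list of this size is near the background. Of 19 other genes of peroxisomal oxidation and the peroxisome that were tested, limma called 0 with RA (4 at an unadjusted p under 0.05), and their differences ran from -0.20 to 0.19 with a median of -0.05 on the log2 scale. The median over all genes tested was 0.0025. Acox2, a peroxisomal oxidase that acts on branched chains, had the smallest p, with 0.19 ± 0.04 (SE; adjusted p = 0.0578). Centring each array on its median called 1 of the 19 genes, leaving out the untreated 24 h AML12 array called 1, and the model with all 2-way interactions called 2. The RA difference at 24 h minus that at 3 h had a median of -0.13 over the 19 genes, with 2 above 0. For it limma called 0 of the 19 (6 at an unadjusted p under 0.05, beside 912 of all 11997 genes).

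Of 18 other genes of mitochondrial oxidation and ketone body formation, limma called 0 with RA (3 at an unadjusted p under 0.05), with a median of -0.06 and a range from -0.19 to 0.31 on the log2 scale. Bdh1, which interconverts the ketone bodies, differed by 0.31 ± 0.09 (SE; adjusted p = 0.196). Cpt1a, which admits fatty acids to the mitochondrion, differed by 0.09 ± 0.04 (adjusted p = 0.442). The model with all 2-way interactions called 3 of the 18. These differences average over 3 h and 24 h. The RA difference at 24 h minus that at 3 h had a median of -0.24, with 1 gene above 0. For it limma called 0 of the 18 (11 at an unadjusted p under 0.05). Over all genes its median was 0.0099, and 912 of 11997 had an unadjusted p under 0.05. Hadhb, with the smallest p, read 4615 units untreated and 4208 units with RA in AML12 at 24 h. In the v-erbA line it read 3649 and 3223 units. For the same time difference, hepatocyte markers gave -1.53 for Apoa1, -1.02 for Fgb, -0.95 for Apoh, -0.70 for Serpina1b and -0.18 for Alb. Of the markers tested, only Apob (0.62) and Ttr (0.017) lay above 0, and limma called none. The untreated 24 h AML12 array had the highest summed hepatocyte markers. The part of these in the time differences of both oxidation lists was not tested.

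Among 23 other PPAR alpha targets tested, 1 gene rose with RA and 0 fell in the limma fit (5 at an unadjusted p under 0.05), with a median of 0.02. It was Pdk4, the kinase that restrains pyruvate oxidation, with 136 and 190 units in untreated AML12 and 211 and 335 units with RA. In the v-erbA line Pdk4 read 156 and 176 units untreated and 224 and 259 units with RA. Every RA array was above every untreated one, and the difference was 0.57 ± 0.09 (SE; adjusted p = 0.0196). The call was lost without the untreated or the RA AML12 array of 3 h, the untreated v-erbA array of 24 h or the RA v-erbA array of 3 h, at adjusted p = 0.0764, 0.0727, 0.0995 and 0.0517, and without the mean-variance trend (0.0768). Of 9 other acyl-CoA thioesterase genes tested, limma called 0 with RA (0 at an unadjusted p under 0.05), with differences from -0.25 to 0.11. Acot1, Acot2, Acot3 and Acot4, selected with their RA differences known, are not among them, so a low count follows in part from that choice.

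Among 17 other receptors and partners, 1 rose and 1 fell with RA in the limma fit (6 at an unadjusted p under 0.05), with a median of -0.04. Nrip1, a corepressor of nuclear receptors, rose by 1.67 ± 0.12 (SE; adjusted p = 0.00125), from 264 to 409 units on untreated arrays to 968 to 1155 units on RA arrays. With the mean of all its probe sets the Nrip1 difference was 1.03 (adjusted p = 0.00300). This list was drawn up with earlier results of these data known, so these p-values do not come from genes named beforehand. Hnf4a, a hepatocyte receptor, fell by 0.27 ± 0.05 (adjusted p = 0.0452), a call lost in 13 of 17 alternatives, among them the fits without any 1 array other than the untreated 3 h AML12 array. Its adjusted p reached 0.201 over these alternatives.

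**Figure D4:**
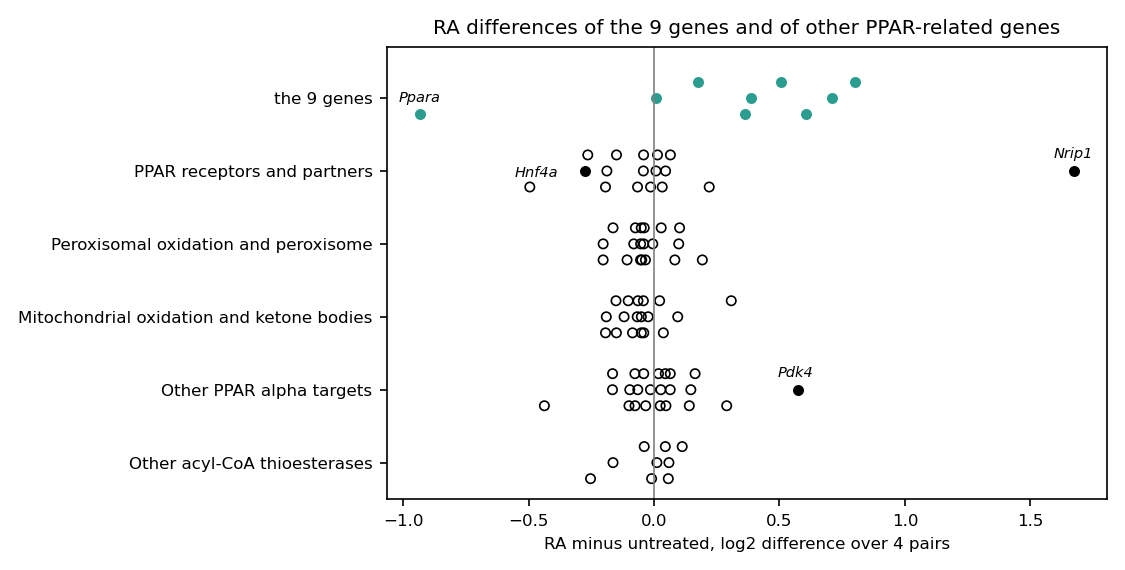
RA minus untreated on the log2(signal + 19.9) scale for the 9 genes and 5 lists of other PPAR-related genes, 1 point per gene over 4 pairs; teal points are the 9 genes, whose RA values chose them, filled black points passed the limma threshold and open points did not. The oxidation lists lie between -0.20 and 0.31, and Pdk4 at 0.57 and Nrip1 at 1.67 stand to the right.

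By line, most genes of the oxidation lists that passed had the direction of Acaa1b, Ehhadh and Aldh3a2, and the summed hepatocyte markers were also lower with v-erbA in 4 of 4 pairs. Over all genes 53.5% passed, 27.0% lower. In the v-erbA line 14 of the 19 peroxisomal genes fell and 0 rose, with a median of -0.36 on the log2 scale, beside 0.012 over all genes tested. Phyh, which starts the breakdown of phytanic acid, fell by 1.23 ± 0.14 (SE; limma adjusted p = 9.38e-05), and Acox2 fell by 0.98 ± 0.04 (adjusted p = 2.25e-07). Of the 18 mitochondrial and ketone body genes 12 fell and 1 rose, with a median of -0.29. Acaa2, a mitochondrial thiolase, fell by 1.07 ± 0.12 (adjusted p = 8.08e-05), and Hadha, a subunit of the mitochondrial trifunctional protein, fell by 0.75 ± 0.07 (adjusted p = 3.96e-05).

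Of the 23 other PPAR alpha targets 14 fell and 2 rose in the v-erbA line. Cyp4a12a, a fatty acid hydroxylase, fell by 1.32 ± 0.13 (SE; limma adjusted p = 3.96e-05) on the log2 scale, and Cd36, a fatty acid transporter, rose by 0.99 ± 0.20 (adjusted p = 0.00243). Of the 9 other thioesterases 3 fell and 1 rose, and 2 passed without the RA v-erbA array of 24 h. Of the 17 receptors and partners 5 fell and 5 rose. Both of these last counts lie near the 53.5% of all genes that passed by line. The liver fatty acid carrier Fabp1, which delivers ligands to PPAR alpha, fell by 1.64 ± 0.15 (adjusted p = 2.51e-05), and Ppargc1a, a coactivator, was at least 1.30-fold higher, its AML12 signals all being dim (adjusted p = 7.63e-05).

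By time, 7 of the 19 peroxisomal genes and 7 of the 18 mitochondrial and ketone body genes rose and 0 fell, with medians of 0.13 each on the log2 scale, beside 0.032 over all genes. Of all genes 34.3% passed by time, 19.3% higher. The first count was 4 without the untreated 3 h AML12 array or the untreated 24 h v-erbA array, and 3 without the untreated 3 h v-erbA array. Etfdh, of the electron transfer chain of fatty acid oxidation, rose by 0.57 ± 0.08 (SE; limma adjusted p = 0.000766), or by 0.31 with the mean of its probe sets (0.00808), and Bdh1 rose by 0.57 ± 0.09 (adjusted p = 0.00102). Of the 23 other PPAR alpha targets 11 rose and 2 fell, led by the fatty acid transporter Slc27a1 with 1.74 ± 0.14 (adjusted p = 1.17e-05), or 0.97 with the mean of its probe sets, and the transcription factor gene Creb3l3 with 1.47 ± 0.10 (adjusted p = 5.63e-06). That total was 7 without the untreated 3 h AML12 array and 8 without the untreated 3 h v-erbA array.

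The profile of Ppara over the 8 arrays was compared with those of the other 11996 genes tested, as the root mean square distance between log2 values after each gene was centred on its own mean. The nearest were Ttc38 at 0.29, Tmem191c and Robo4 at 0.30 each, Pmaip1 at 0.31 and Cebpd at 0.32. All 5 were lower with RA, by mean log2 differences of -0.53, -0.44, -0.38, -0.36 and -0.44, smaller than that of Ppara. Since Ppara itself fell with RA, this direction follows largely from picking the nearest profiles. Tmem191c (24.8 to 70.9 units) and Robo4 (46.4 to 66.2 units) were dim on every RA array. Both passed the filter through untreated arrays only, so their direction under RA follows in part from the filter. Pmaip1 encodes a death-promoting protein of the BCL2 family and Cebpd a transcription factor. The distance includes the RA contrast that chose the members, so their ranks follow in part from that choice. Acot1 was at rank 10197 with 0.69, Acot2 at rank 10894 with 0.80 and Acaa1b at rank 11778 with 1.28. Ppard was at rank 7591 with 0.60.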

How the data were processed

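The deposited table gives each Affymetrix probe set a linear signal intensity on each array, up to 12275 units. How the authors summarized and scaled the intensities is not given in the sources used here. RNA was extracted with Trizol and a column kit, per the labels' protocols. Of 45037 probe sets, 1 with missing values was left out. Platform annotation named 1 gene for 34944, several for 932 and none for 9160. Of the first, 34740 were found in the RefSeq gene table (GRCm38.p6), and 0 symbols changed. The 9 members were named by 18 probe sets, 14 of them naming 1 gene. The brightest 1-gene probe set, by mean log2 value, stood for a gene.

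Signals became log2(signal + 19.9), the offset being the 20th percentile of all values, so differences of dim genes are understated. Genes above the pooled median of 73.5 units on at least 2 of 8 arrays were tested: 11997 genes, all 9 members included. Where the lower group was dim on every array, the fold is a bound against the pooled median. limma 3.58.1 (R 4.3.3) fitted line, treatment and time (4 residual degrees of freedom) or 1 added interaction (3), with a mean-variance trend, Benjamini-Hochberg adjustment and a threshold of 0.05, and was tested on simulated data. RA values of members carry no test. The members and gene lists were chosen with earlier results of these data known. Named are all members, up to 4 largest changes per list among those past the threshold (otherwise the 2 smallest p), and the 5 genes nearest to Ppara. Other genes named (Acaa1a, Acot5, Apoa1, Apob, Apoh, Serpina1b, Alb, Ttr, Fgb) are paralogs or neighbours of members or hepatocyte markers, chosen after their values were seen. Figures used matplotlib 3.10.9 in Python 3.11.15. Alternatives covered scaling, offset, filter, dim signals, probe sets, trend, model and each array left out.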

Additional observations from a re-analysis of the deposited data

Results flagged for a closer look

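In the probe set that stands for Ppara, the line difference had opposite signs at the 2 times. The v-erbA array was above its AML12 partner at 3 h both without and with RA, by 0.10 and 0.53 on the log2 scale, and below it at 24 h in both, by -0.22 and -0.25. The mean difference at 3 h exceeded that at 24 h by 0.55. The other Ppara probe sets did not repeat this pattern in full. The second was also lower with v-erbA at 3 h untreated, 612 against 626 units. The third was higher with v-erbA in every pair, at 24 h with 660 against 619 units untreated and 589 against 454 units with RA. This contrast between times was not tested.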

How the results depend on the processing

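No paired analysis was possible because each group has 1 array and the replicate numbers are only names, so no replicate block could be fitted; the pairs in the report are arrays matched by line, treatment or time. Over 9 members and 5 contrasts, with 1 setting changed at a time, 394 values stayed on their side of the threshold (for RA, within 1 SD over pairs), 5 passed only under the alternative and 1 was lost; with 1 array left out these counts were 350, 2 and 8. Signs turned for 3 of 400 values and for 28 of 360 with 1 array left out, among them the line difference of Ppara and the RA difference of Ppard; 0 of these were past the threshold before or after. The count of 27 of 28 target values opposite to Ppara was 27 under all 6 alternatives tried. Over all genes, the RA calls (143) were 17 without the mean-variance trend and 628 with all 2-way interactions, and 36 to 143 with 1 array left out. They were 57 without the untreated AML12 array of 3 h, 36 and 87 without the RA AML12 arrays of 3 h and 24 h, 78 and 63 without the untreated v-erbA arrays of 3 h and 24 h, and 48 without the RA v-erbA array of 24 h. Median centring moved the share of RA calls that were higher from 69.2% to 81.9%. Line by RA calls (0) were 3 with all 2-way interactions and 0 to 2 with 1 array left out. RA by time calls (2) were 1 with quantile normalization or an offset at the pooled median, 0 with dim signals set to that median or without the trend, 121 with all 2-way interactions, and 0 to 102 with 1 array left out, the highest without the untreated v-erbA array of 24 h. v-erbA calls (6413) were 5474 to 6277 and time calls (4109) 3014 to 3867 with 1 array left out. The cause of these moves was not tested. The number of arrays limits the precision, and Ppard and Acot4 lie near the dim level.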
